A study of Drosophila melanogaster with 3 samples.

Results

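The genes for the subunits of the proteasome were examined in a map of Eip75B binding in whole prepupae of Drosophila melanogaster. Members were all protein-coding genes whose symbols begin with Prosalpha or Prosbeta, or with Rpn or Rpt and a digit. There were 48 such genes among 13945 protein-coding genes on the 6 chromosome arms used, 25 for the core particle and 23 for the regulatory particle. The rule reads gene symbols only, and it was set with earlier results of these data known. Eip75B is a nuclear receptor induced by the moulting hormone ecdysone, and the prepupa is the short stage between the larva and the pupa. All animals came from a strain labelled Eip75B-MiMIC-GFP, in which an exon for eGFP sits in an intron of Eip75B and gives a fusion protein, and chromatin was precipitated with an antibody against GFP. The labels describe 1 group of 3 biological replicates of pooled males and females, of unknown age within the stage. Untagged animals were not analysed here, and whole animals mix all tissues, so a summit cannot be assigned to a cell type.

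The proteasome degrades proteins that carry ubiquitin chains. Its core particle is a barrel of alpha rings, which form the gate, and beta rings, which hold the proteolytic sites. The regulatory particle caps the barrel with a base, whose Rpt subunits are ATPases that unfold the substrate, and a lid of Rpn subunits around the deubiquitinase Rpn11. In flies, many core and regulatory subunits have a second gene, and several of these paralogs are known for expression in the male germ line. Here the 32 genes whose symbol ends in the subunit number are called main copies (Prosalpha3, Rpt4), and the 16 whose symbol continues with T or R are called second copies (Prosalpha3T, Rpt4R).

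Eip75B summits lay at the starts of 8 of the 48 members, all of them main copies. A gene was called bound when the summit of a deposited peak lay within 1 kb of any of its annotated transcript starts. In the list of 7803 optimal peaks, 8 of the 48 members were bound (16.7%, 95% exact interval 7.48% to 30.2%), against 23.6% of all protein-coding genes. Main-copy Rpn genes were counted apart only after the values were seen, and 7 of the 12 were bound (58.3%). An exact interval does not hold for a group set apart in this way, so none is given. Of the other 20 main copies, 1 was bound, the alpha-ring gene Prosalpha4. None of the 16 second copies was bound, where the exact interval ends at 20.6% and the limit that a count of 0 allows, taken as 3 genes, is 18.8%. By particle, 7 of 23 regulatory genes and 1 of 25 core genes were bound, and this difference was not tested. Intervals cover counting error only, and genes are not replicates.

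**Figure D1:**
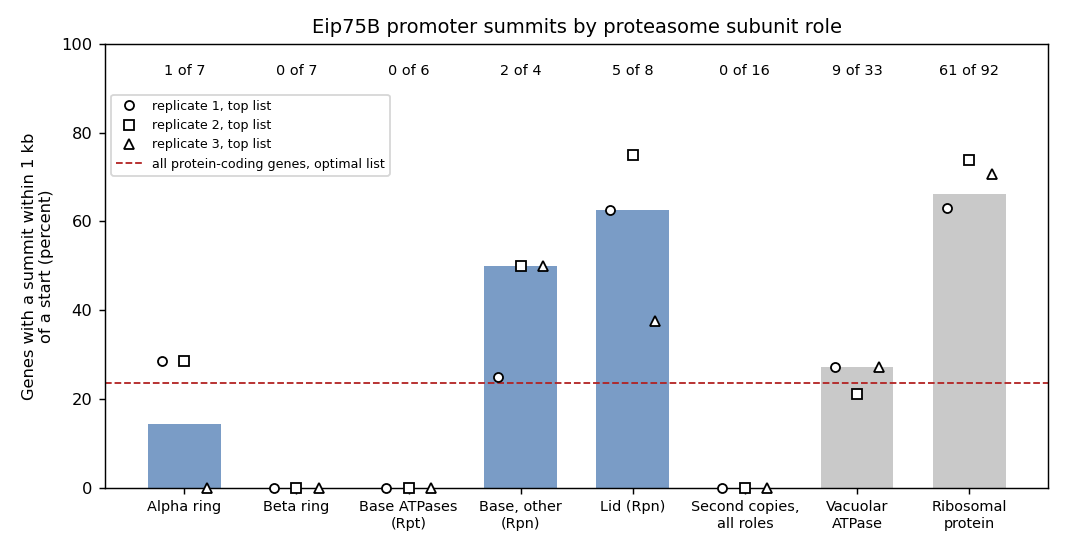
Share of genes with a summit within 1 kb of a start (percent, vertical axis) by subunit role for main copies, for all second copies, and for 2 other gene families. Bars give the optimal list with the count of bound genes above them, symbols the top list of each replicate, and the dashed line the 23.6% of all protein-coding genes. In the optimal list the lid (5 of 8) and the other base Rpn genes (2 of 4) lie above the line, whereas the beta ring, the base ATPases and the second copies are at 0. In replicate 1 the other base Rpn genes are at 25%, close to the line. The grouping by role was made after the values were seen, the groups are small, and no difference was tested. The 2 other families were taken by symbol, so their bars are not a like-for-like comparison for the role groups.

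The sequences under 6 of the 8 summits are shown. A summit marks the top of a peak, and which bases are bound is not known from it. Each run is the stretch around the optimal summit on the strand of the proteasome gene (dm6, Release 6), 5′ to 3′, with the 5 bases centred on the summit in capitals. At Rpn5 the run stops where an annotated UTR begins, and at Rpn3 it is kept to 29 bases because the summit lies in a UTR. Rpn11 lies on the minus strand at chr2L:5059934-5060034, Rpn3 at chr2L:19051794-19051822, Rpn12 at chr3L:16582842-16582942, Rpn5 at chr3R:5789235-5789328, Rpn2 at chr3R:29153352-29153452 and Prosalpha4 at chrX:16275921-16276021.
Rpn5: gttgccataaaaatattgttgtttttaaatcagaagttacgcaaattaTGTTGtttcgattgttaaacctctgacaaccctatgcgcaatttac
Rpn3: ttactgtaaaacATTAAaaataaattcct
Rpn11: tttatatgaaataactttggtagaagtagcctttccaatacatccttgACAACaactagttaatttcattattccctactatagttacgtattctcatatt
Rpn12: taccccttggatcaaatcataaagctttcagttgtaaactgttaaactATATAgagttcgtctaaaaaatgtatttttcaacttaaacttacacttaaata
Rpn2: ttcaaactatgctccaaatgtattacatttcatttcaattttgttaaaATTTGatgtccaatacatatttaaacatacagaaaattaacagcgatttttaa
Prosalpha4: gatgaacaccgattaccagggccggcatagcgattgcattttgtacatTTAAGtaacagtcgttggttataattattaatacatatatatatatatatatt
Within 50 bp of these summits and those of Rpn9 and Rpn13, the sequence AGGTCA, the core of nuclear receptor sites, was found at 0 of 8, on either strand. It was found at 2.05% of the 3311 optimal summits that lie within 1 kb of a start. The longer forms TAGGTCA and ANTAGGTCA contain that core and were also at 0 of 8, against 0.574% and 0.242% of promoter summits. Most of the windows are rich in A and T. Their median GC content was 29.2%, from 22.8% at Rpn2 to 50.5% at Rpn9, and the median over all promoter summits was 35.6%.

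The strongest summits of the family were those at the lid genes Rpn5 and Rpn3. Rpn5, a structural lid subunit (FBgn0028690; 3R, 5789493 to 5791569), had its summit at 5789285 with an authors' signal of 511, rank 629 of 7803. In the 3 replicate lists, each ordered by signal, its best region ranked 640, 892 and 500, with signals of 175, 142 and 187. The ranks of Rpn5 thus stayed within the first 1000 of 30000 in every replicate. Its summit lay 99 bp from a start of Hat1 and 208 bp from that of Rpn5, so it cannot be assigned to Rpn5 alone. Rpn3, another lid subunit (FBgn0261396; 2L, 19051790 to 19053681), had its summit in its own 5′ UTR at 19051808, only 18 bp past a start, with a signal of 358 and rank 1202. Its replicate ranks were 1476, 1322 and 1100, and the replicate summits lay 11, 5 and 0 bp from the optimal summit.

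Rpn11, the metalloprotease that removes ubiquitin chains from substrates (FBgn0028694; 2L, 5058404 to 5059790, minus strand), had a summit in intergenic sequence 194 bp upstream of its start, with a signal of 170 and rank 3726. It ranked 2555 and 3313 in replicates 1 and 2 and 9112 in replicate 3. In replicate 3 Rpn11 therefore fell outside the 7803 highest-signal regions, which are called the top list here because the optimal list is of that length. Rpn12, a lid subunit that is among the last to join during lid assembly in yeast (FBgn0028693; 3L, 16583028 to 16584022), had an intergenic summit 136 bp upstream, with a signal of 136 and rank 4933. Its ranks of 5165, 6592 and 4811 placed it in all 3 top lists. Rpn9, also of the lid (FBgn0028691; 3R, 23731375 to 23733462, minus strand), had the weakest bound summit, with a signal of 94.8 and rank 7611, near the end of the optimal list, whose lowest signal was 92.6. Its replicate ranks were 6499, 7152 and 11020, and replicate 3 again lay outside the top list.

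The remaining 3 lid genes had no optimal summit within 1 kb of a start. Rpn7 came nearest, with ranks of 7694 in replicate 2 and 8868 in replicate 3 and no region in replicate 1 or in the pooled list. Rpn6, which clamps the lid to the core particle, and Rpn8, the partner of Rpn11, had no region within 1 kb of a start in any of the 4 lists of 30000. The nearest optimal summits to their starts lay 16513 bp and 10783 bp away.

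Among the base genes, the non-ATPase scaffolds and ubiquitin receptors were split and the ATPases were not bound. Rpn13, a ubiquitin receptor (FBgn0033886; 2R, 13958545 to 13960404, minus strand), had a signal of 221 and rank 2582 at 13960509, which is 105 bp upstream of a start. Its ranks in the replicates were 1796, 2409 and 4759. Rpn2, a scaffold subunit (FBgn0028692; 3R, 29153524 to 29157255), had a signal of 129 and rank 5284 at 29153402, and replicate ranks of 7970, 5661 and 5239. It was thus just outside the top list of replicate 1. Rpn10, another ubiquitin receptor, had a single region, at rank 8998 in replicate 1, and Rpn1, the scaffold that receives shuttle factors, had none in any list. The nearest optimal summits to Rpn10 and Rpn1 were 12908 bp and 11740 bp away.

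None of the 6 main-copy Rpt genes had a promoter summit, and with so few genes the same limit of 3 genes is a share of 50%. Rpt3 alone had a region, at rank 8539 in replicate 2. Rpt1, Rpt2, Rpt4, Rpt5 and Rpt6 had none within 1 kb of a start in the pooled list or in any replicate. The distance from their starts to the nearest optimal summit was 2865 bp at Rpt2, 3421 bp at Rpt6, 5291 bp at Rpt5, 11619 bp at Rpt1 and 11995 bp at Rpt4, and it was 21756 bp at Rpt3. The summit nearest to Rpt5 ranked 90 and that nearest to Rpt2 ranked 227, so high-signal peaks lay a few kb from both genes without a summit at either start.

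In the core particle, Prosalpha4 (FBgn0004066; X, 16276270 to 16277587) was the single bound gene. Its summit at 16275971 had a signal of 164 and rank 3911, and lay 299 bp upstream of its start in an intron of kat80. The replicate ranks were 4696, 3068 and 9235, so that replicate 3 lay outside the top list. Among the other alpha-ring genes, Prosalpha6 had a region in replicate 1 alone, at rank 6124 with a signal of 39.7, and Prosalpha5 in replicate 2 alone, at rank 5518 with a signal of 47. Prosalpha3 was listed in all 3 replicates, but only at ranks 13221, 11825 and 23738, and not in the pooled list. Prosalpha1, Prosalpha2 and Prosalpha7 had no region in any list, and their nearest optimal summits were 5098, 11438 and 12561 bp away.

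None of the 7 main-copy beta-ring genes was bound, for which the limit of 3 genes is a share of 42.9%. Prosbeta2, which carries the trypsin-like site, was listed in all 3 replicates at ranks 16047, 16999 and 11350. Prosbeta1, with the caspase-like site, was listed in replicate 3 alone, at rank 8366, and Prosbeta7 in replicate 2 alone, at rank 14790. In the pooled list these 3 genes ranked 17984, 25002 and 19190, far below the optimal peaks. Prosbeta3, Prosbeta4, Prosbeta5, which carries the chymotrypsin-like site, and Prosbeta6 had no region within 1 kb of a start in any list. The nearest optimal summits lay 25794, 11271, 11583 and 1092 bp from their starts, 3239 bp from Prosbeta1, 5313 bp from Prosbeta2 and 3307 bp from Prosbeta7. The summit nearest to Prosbeta6, of rank 5320, lay just past the 3′ end of the gene, beside the start of CG4098.

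**Figure D2:**
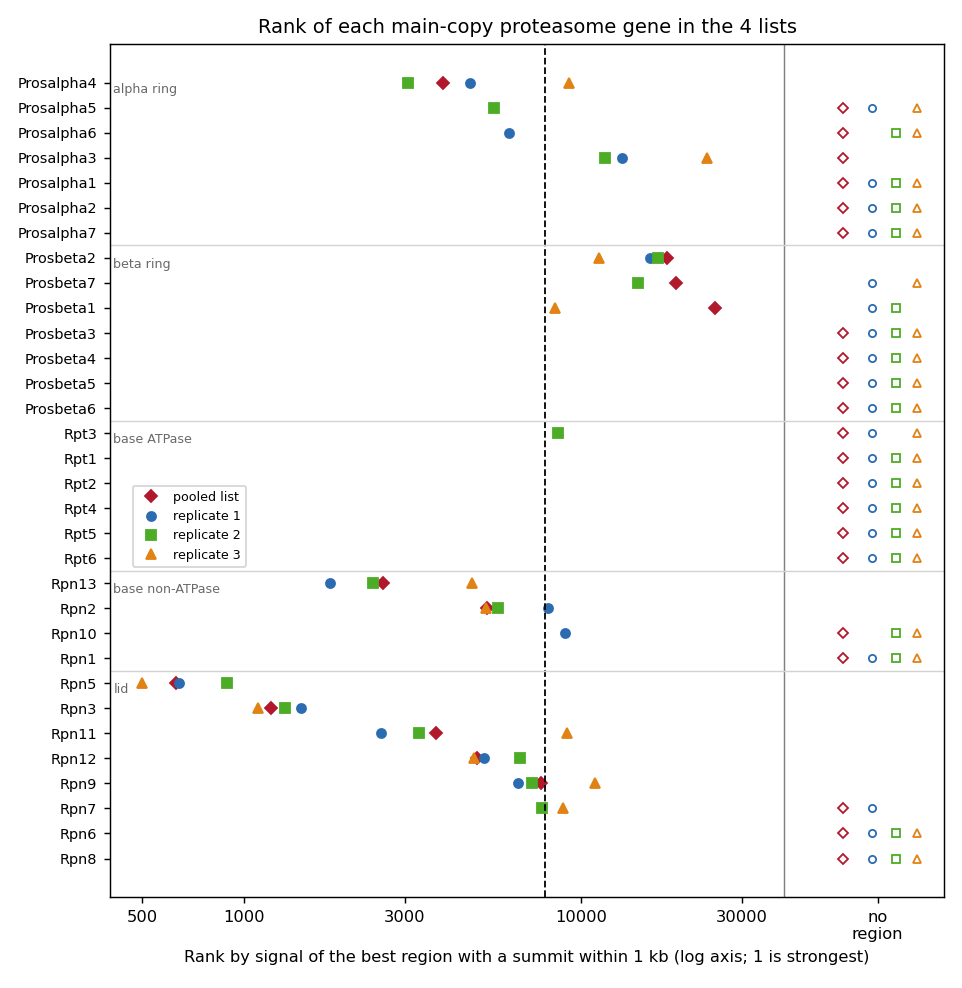
Rank by signal (horizontal log axis, 1 is strongest) of the best region with a summit within 1 kb of a start, for the 32 main-copy genes grouped by role, in the pooled list and in replicates 1, 2 and 3. The dashed line marks rank 7803, and open symbols at the right stand for genes with no region in that list. Rpn5 and Rpn3 are far to the left in all 4 lists, replicate 3 of Rpn11, Rpn9 and Prosalpha4 lies right of the line, and most core genes have open symbols.

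The replicates differed in how many members passed. The top lists of replicates 1, 2 and 3 held a summit at 8, 10 and 5 members, a mean of 7.67 ± 2.52 (SD, n = 3), against 24.9%, 25.7% and 24.1% of all genes. Replicate 3 thus gave the fewest members, although its share of all genes was within 2 percentage points of the others. For main-copy Rpn genes the counts were 6, 8 and 5 (6.33 ± 1.53, SD, n = 3) and for the core particle 2, 2 and 0 (1.33 ± 1.15, SD, n = 3). At least 1 top list held a summit at 11 members, against 32.1% of all genes, and 4 members were in all 3 top lists, against 18.0% of all genes. Those 4 were Rpn3, Rpn5, Rpn12 and Rpn13. Every one of the 8 optimal summits lay within a region of all 3 whole replicate lists. The replicate summits there lay a median of 20.5 bp and at most 129 bp from the optimal summit. Optimal peaks come from the same experiment through IDR, so such agreement is partly built in. Its share over all optimal peaks is not given here.

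The whole lists, which hold background as well as peaks, had no region at the second copies. Of all protein-coding genes, 56.1% had a region with its summit within 1 kb of a start in the whole list of at least 1 replicate, 35.3% in the whole lists of all 3, and 41.5% in the whole pooled list. Of the 32 main copies, 17 had such a region in at least 1 replicate, 10 in all 3 and 11 in the pooled list. Of the 16 second copies, 0 had a region in any of the 4 lists. They are Prosalpha1R, Prosalpha3T, Prosalpha4T1, Prosalpha4T2, Prosalpha6T, Prosbeta2R1, Prosbeta2R2, Prosbeta4R1, Prosbeta4R2, Prosbeta5R1 and Prosbeta5R2 of the core, and Rpn12R, Rpn13R, Rpt3R, Rpt4R and Rpt6R of the regulatory particle. Their nearest optimal summits lay 3415 to 69937 bp away, with a median of 13977.5 bp, against a median of 10421.5 bp for the 24 unbound main copies and 10096 bp for all unbound genes. Prosbeta4R1 and Prosbeta4R2 are neighbours on 2L and share the farthest distance, 67589 and 69937 bp, so the second copies are not independent of each other. Reads that match both copies of a subunit could be placed on either or discarded, and how the authors treated such reads is unknown from the labels and files. The part this has in the result was not tested.

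The members were short genes, and most had a single start, as most genes do. They were 881 to 4500 bp long, with a median of 1381.5 bp against 2166 bp over all genes, and 36 of 48 had a single annotated start, as did 10246 of all 13945 genes and 22 of the 32 main copies. Of the 7991 genes within the same range of length, 19.8% were bound, and of the genes with a single start, 16.6% were. The share of all members, 16.7%, lay between the share of single-start genes and that of all genes. For main copies it was 25% (8 of 32), close to the 23.6% of all genes.

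Bound summits were close to the starts and mostly shared with a neighbouring gene. Each of the 8 genes had exactly 1 promoter summit, as did 76.2% of all 3296 bound genes. All 8 summits lay within 300 bp of the start, where this held for 65.3% of all bound genes. The median distance was 165 bp, against 191 bp over all bound genes. The median signal of the 8, 167, was slightly below the 191 of all bound genes. Of the 8, 4 were among the 3901 highest-signal optimal peaks, against 59.1% of all bound genes. Of the bound genes, 6 have a start of another gene on the opposite strand within 1 kb upstream or overlapping by up to 200 bp, that is 75% against 51.8% of all bound genes.

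At Prosalpha4 and Rpn5 a neighbouring gene was nearer to the summit than the proteasome gene. The Prosalpha4 summit lay 54 bp from the nearest start of kat80, which encodes the regulatory subunit of the microtubule-severing enzyme katanin. The Rpn5 summit lay 99 bp from the nearest start of the histone acetyltransferase gene Hat1, in an intron of Hat1, and 208 bp from that of Rpn5. The Rpn9 summit lay in an intron between both starts of Rpn9, which are 218 and 233 bp away. At Rpn12 no other start lay within 1 kb. At Rpn2 the difference was small, 122 bp to its own start and 136 bp to that of Slbp, the histone mRNA stem-loop binding protein gene. Peaks of this width cannot be assigned to 1 of a pair of such starts. Counting each summit only for the nearest start left 5 members bound, all of them Rpn genes, against 18.4% of all genes.

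**Figure D3:**
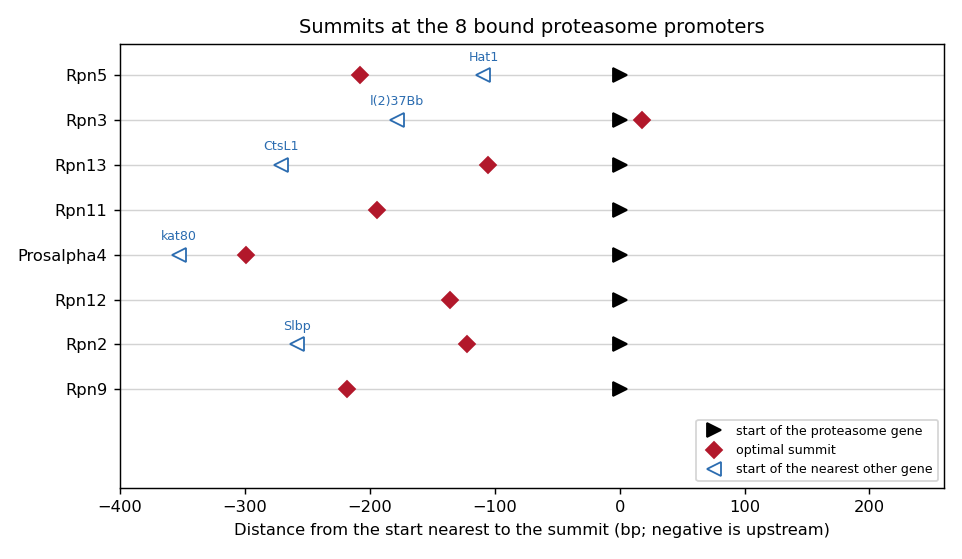
Position of the optimal summit (diamond), of the nearest start of the proteasome gene (filled triangle at 0) and of the nearest start of another gene (open triangle, drawn for 5 of the genes) for the 8 bound genes in order of rank. The horizontal axis is the distance from the start nearest to the summit in bp, negative upstream. Upstream of that start lie 7 summits, at 105 to 299 bp, and that of Rpn3 lies 18 bp past it.

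Opposite-strand neighbours were frequent among main copies whether or not they were bound. Of the 32 main copies, 22 (68.8%) had one, against 4 of the 16 second copies and 36.4% of all genes. Among main copies with such a neighbour 6 of 22 were bound, and among those without one 2 of 10. Over all genes the shares were 33.7% and 17.9%. Such a start was present at 6 of 8 bound and 16 of 24 unbound main copies.

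A short sequence, the DRE, was found in a larger share of main-copy promoters than of all promoters. The DRE, TATCGATA, the site of the factor DREF that serves growth and replication genes, was searched from 250 bp before to 50 bp after the 5′ end of the gene. It was found at 12 of the 32 main copies (37.5%), 0 of the 16 second copies and 9.36% of all 13945 genes. Both bound and unbound main copies carried it, 4 of 8 and 8 of 24. In the bound genes Rpn3, Rpn9, Rpn12 and Rpn13, the centre of the match lay 211, 203, 76 and 108 bp from the summit. It lay within 50 bp of 0 of the 8 summits, against 1.84% of promoter summits. The sites, with 10 bases on either side and on the strand of the gene, are shown for the bound genes Rpn3 and Rpn12 and for the unbound genes Prosalpha6, Prosbeta2, Prosbeta6, Rpn7 and Rpt5, with the match in capitals. TATCGATA reads the same on both strands.
Rpn3: gttatcggagTATCGATAtcgaaaaggc
Rpn12: tgttaaaataTATCGATAttaaagcaca
Prosalpha6: ccgaatccctTATCGATAcccgatacac
Prosbeta2: catgaatataTATCGATAcaatatcgat
Prosbeta6: tatgtataccTATCGATAacgtttaagc
Rpn7: cggtataattTATCGATAattttggggt
Rpt5: tcgctgtcacTATCGATAagcgccggcg
The positions in dm6 are chr2L:19051583-19051610 for Rpn3, chr3L:16582802-16582829 for Rpn12, chr2L:10221325-10221352 for Prosalpha6, chr3L:14999931-14999958 for Prosbeta2, chr3L:16610445-16610472 (minus strand) for Prosbeta6, chr3R:22462034-22462061 (minus strand) for Rpn7 and chr3R:23752820-23752847 for Rpt5.

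The other motifs searched on either strand were less frequent in main-copy promoters than the DRE. GGTCACAC, the core of the housekeeping promoter element called motif 1, was found at 5 of 32 main copies (15.6%), against 7.70% of all genes. These were Rpn1, Rpn7, Prosalpha2, Prosbeta3 and Prosalpha4, of which only Prosalpha4 was bound. The Prosalpha4 match lay 336 bp from its summit. Within 50 bp of the summits, GGTCACAC was at 1 of 8, a summit other than that of Prosalpha4, against 1.39% of promoter summits. GAGAG was also at 1 of 8, against 14%. The other 7 motifs were at 0 of 8. TGACNNNGC, the core of the antioxidant response element through which Cap'n'collar factors act, was found at 5 main copies, against 8.63% of all genes, and at none of the 8 bound members. It was in the promoters of Rpn1, Rpn7, Rpt6, Prosalpha2 and Prosbeta3. In Rpn1, Rpn7, Prosalpha2 and Prosbeta3 both this core and GGTCACAC occurred. In Rpn1 and Prosbeta3 a match to TGACNNNGC overlaps the match to GGTCACAC, so these matches share bases. CATCNCTA, the core of motif 7, was at 4 main copies (12.5%), against 6.42% of all genes, and CACGTG, an E-box, at 0, against 4.2%. GAGAG was at 3 main copies, against 29.7% of all genes, and at 6 of 16 second copies. AGGTCA was at 0 of 32 main copies and at 1 second copy, Prosalpha6T, against 5.88% of all genes. A match is a description of the letters and not evidence of a site.

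**Figure D4:**
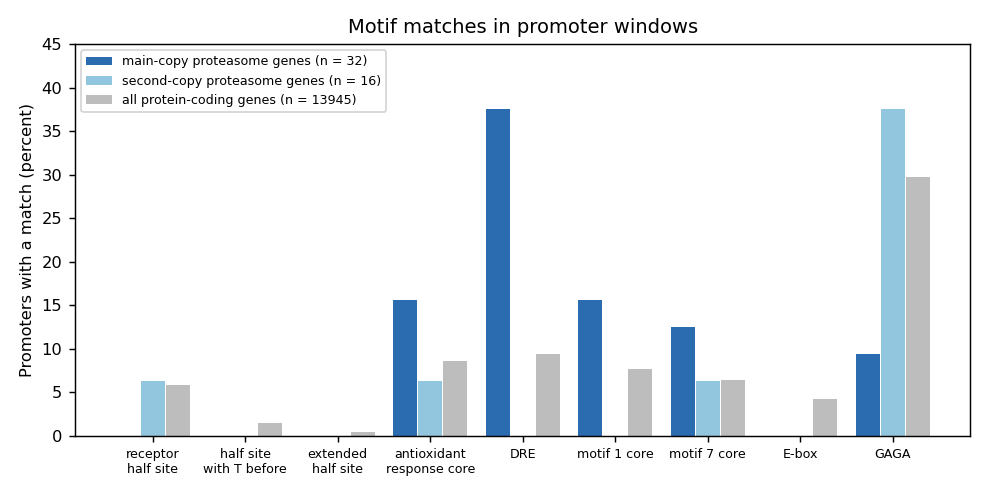
Share of promoter windows with at least 1 match (percent, vertical axis) for 9 motifs, in main-copy proteasome genes, second copies and all protein-coding genes. The DRE stands at 37.5% in main copies, 0 in second copies and 9.36% in all genes, and AGGTCA (the receptor half-site) and its longer forms are at 0 in main copies.

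Genes that assemble, feed and regulate the proteasome were bound in part, and their counts are to be read against the 23.6% of all genes. Of 7 assembly and associated factor genes, 1 was bound (14.3%). This was Pomp, the gene for the chaperone of core particle maturation, with a signal of 575 and rank 474 at 132 bp from its start, in the top list of all 3 replicates. PI31, for a proteasome regulator, had no optimal summit but was in 2 top lists. Sem1, which encodes a further small lid subunit, REG, Uch-L5, Usp14 and Txl had neither. Ecm29 was listed too and is named only. Of 7 genes for the unfoldase p97 and its ubiquitin shuttle factors, 2 were bound (28.6%), both near the end of the list, Npl4 with a signal of 102 and Ufd1 with 98.4, and TER94, the p97 gene itself, was not.

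Of 5 genes for ubiquitin and its activating enzyme, 3 were bound. The polyubiquitin genes Ubi-p63E and Ubi-p5E had signals of 174 and 122 and were in all 3 top lists, and Uba1, the activating enzyme, had a signal of 100 and was in 1. RpS27A, a ubiquitin fusion gene, was in all 3 top lists without an optimal summit, and RpL40, the other fusion gene, was in none. Of 4 genes that regulate proteasome gene expression, 3 were bound. Keap1, the inhibitor of the Cap'n'collar factor, had 3 promoter summits with a highest signal of 943 (rank 139) at 920 bp from a start. cnc, the gene for that factor, had 2 with a highest signal of 482, and Pngl, for peptide N-glycanase, had 1 with 161, whereas maf-S had none, although it was in 2 top lists. The 3 bound regulators were in the top list of every replicate. cnc has 10 annotated starts, each of which can take a summit.

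For comparison with other families of subunits that work in 1 complex, 61 of 92 cytosolic ribosomal protein genes (66.3%, interval 55.7% to 75.8%) and 9 of 33 vacuolar ATPase genes (27.3%, interval 13.3% to 45.5%) were bound. These families were taken by symbol, without setting second copies apart. Counted in that way, the proteasome members were at 8 of 48 (16.7%), and the main copies alone were at 25%. Within the main copies, the split made after the values were seen gave 7 of 12 Rpn genes and 1 of 20 others. The plot of shares by subunit role draws finer groups, also made after the values were seen, on the same axis as these families. No conclusion is drawn from setting groups made in this way beside families taken by symbol. No difference between these groups or families was tested.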

How the data were processed

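Chromatin bound by eGFP-tagged Eip75B was sequenced in 3 replicates, after shearing to 200 to 800 bp per the labels. The authors deposited peak lists on dm6 with a signal value for each region, 30000 regions per replicate list and 30000 in a pooled list, meant to be ranked for IDR (irreproducible discovery rate, which compares peak ranks between replicates), and 7803 optimal peaks after IDR. Ordered by signal, the first 7803 pooled regions have the same summits as the optimal list. Aligner, peak caller, IDR threshold and read numbers: not given in the sources used here. Sequencing depth is therefore unknown. Signal was used only within a list. A neighbouring gene and the sequence near it are not reported here. The dm3 lists and control libraries were not used here.

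Summits (1-based start plus offset) were assigned to transcript starts of Ensembl release 115 (annotation 6.54) with Python 3.11.15. All regions lay within the Release 6 arms. The assignment was tested on planted summits. Intervals are Clopper-Pearson (scipy 1.17.1). There is 1 group, so no test was run, and p-values were not computed. The members, lists and motifs were chosen with earlier results of these data known, and the grouping by subunit role and the separate count of main-copy Rpn genes were made after the values were seen. Of 24 listed pathway genes, 23 were matched, 1 through a synonym. By rule, full values were given for the 5 bound members of highest signal in each particle, unbound main copies and bound second copies, and up to 3 genes of each pathway list. Alternatives were the distance, the definition of a start, the assignment to the nearest start, the length of the list, overlap in place of the summit, and leaving out each replicate.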

Additional observations from a re-analysis of the deposited data

How the results depend on the processing

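Of 79 alternatives over 11 results, 50 left the value within 1.5 times (counts) or within the spread between replicates (means and medians). The results overlap, so the tally counts the same genes more than once. Members and main copies hold the same bound genes, as do the regulatory particle and main-copy Rpn genes, and core and non-Rpn main copies. The second copies stayed at 0 under every alternative run. This is no check of that count, because no alternative reaches their nearest optimal summit, 3415 bp from a start. These alternatives are nevertheless among the 50 in the tally. With each summit counted for the nearest start only (18.4% of all genes bound, against 23.6%), members and main copies bound fell from 8 to 5, and core and non-Rpn main copies from 1 to 0. The genes lost include Prosalpha4 and Rpn5, whose summits have a nearer gene. Among the 3901 highest-signal optimal peaks (14% of all genes), members, main copies, the regulatory particle and main-copy Rpn genes each held 4 bound genes, and core and non-Rpn main copies 0. At 250 bp (16.0% of all genes), core and non-Rpn main copies fell to 0, since the Prosalpha4 summit is 299 bp away. With any base of a region within 1 kb counted (24.7% of all genes), both rose to 2, by Prosbeta6. Leaving out a replicate, by counting only optimal summits inside top-list regions of both others (18.2% to 18.4% of all genes), left 4 to 7 members and main copies, 4 to 6 regulatory and main-copy Rpn genes, and 0 to 1 core and non-Rpn main copies. The lowest values came without replicate 2, because replicate 3 lacks Rpn11, Rpn9 and Prosalpha4 and replicate 1 lacks Rpn2, and 5642 to 5815 peaks were kept there. Members in the top lists of all remaining replicates were 4 to 7, with 7 without replicate 3. With the 3901 highest-signal regions of each replicate, the members in all 3 fell to 2 and the mean to 3.67. With whole lists they were 10 and 12.7. The 8 of 32 main copies bound are just above the share of all genes, but the 5 of 32 by nearest start, the 4 of 32 among the 3901 peaks, and the 5 and 4 of 32 without replicates 1 and 2 are below the share of all genes under the same setting. The alternatives for main-copy Rpn and non-Rpn genes were chosen after seeing the data. Depth is unknown, so an absent summit is one not listed, not one shown to be absent.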
